A study of Mus musculus with 10 samples.

Results

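Undertranslated RNA was compared with total cytoplasmic RNA of primary mouse embryonic fibroblasts on 6 of the 10 arrays of a series that asks how mRNA levels and translation change early after serum. The members were chosen by the array titles alone: 4 arrays of undertranslated RNA and the 2 arrays of cytoplasmic RNA, with serum state as a factor. The polyribosome arrays entered no test. Every culture came from e14.5 embryos with the genotype C57/BLACK6, ATF1 +/-, so the cytoplasmic controls carried the same heterozygous allele. Starvation in 1% dialyzed serum lasted 48 h for all of them, after which they spent a further 2 h in 1% (starved) or 10% serum (serum-treated). The 4 groups were starved cytoplasmic RNA (1 array), serum-treated cytoplasmic RNA (1 array), starved undertranslated RNA (2 arrays) and serum-treated undertranslated RNA (2 arrays). Gradient cultures received cycloheximide at 100 ug/ml for 30 min before lysis and the cytoplasmic cultures did not, so the RNA pool and this drug cannot be told apart. Undertranslated replicate 2 came from cultures labelled with 4-thiouridine (200 uM) and 3H-cytidine, which replicate 1 and the cytoplasmic cultures did not receive. Each gradient array holds mixed fractions of several biological and technical repeats, so the replicate spread is one of mixtures and may in part be technical.

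An mRNA in translation usually carries several ribosomes and sinks deep into a sucrose gradient, while an mRNA that carries none, a subunit or a single ribosome stays near the top. The undertranslated pool is that upper part. Cytoplasmic RNA holds all mRNAs whatever their ribosome load, so a gene higher in the undertranslated pool than in cytoplasmic RNA has a larger share of the light RNA than of the whole. Known mRNAs of the light part include those repressed by upstream open reading frames, by iron regulatory proteins or through a 5' terminal oligopyrimidine (TOP) tract. Messages of secreted proteins are held on membrane-bound ribosomes while they are translated.

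The undertranslated arrays were the dimmer ones. Their median intensity was 5.7 to 8.8 against 19.1 and 19.2 on the cytoplasmic arrays, and 43.4% to 53.5% of probe sets lay above background against 56.3% and 64.7%. Background here means, on each array, the brightest of 19 control probe sets for bacterial and yeast RNA that was not spiked in. The spiked hybridization controls went the other way, with medians of 624 to 642 on the undertranslated and 163 and 182 on the cytoplasmic arrays. The ratio of 3' to 5' probe sets of Actb was 23.6 to 137 in undertranslated and 11.9 and 16.6 in cytoplasmic RNA, whereas that of Gapdh was 3.7 to 6.81 against 28.4 and 47. The 5' Actb value lay below background on every undertranslated array except serum-treated replicate 2. The Actb ratios of those arrays therefore rest on values at the floor. All 11 measured fibroblast markers were above background on both cytoplasmic arrays, and 10 of them on each undertranslated array. Of the 13 macrophage markers 9 and 8 were above background on the cytoplasmic and 5 to 6 on the undertranslated arrays. Cd14, Ctss and Laptm5 were above it on all 6 arrays, and Itgam, Ptprc and Aif1 on none. The summed intensity of the 13 was 409 and 894 in cytoplasmic and 112 to 221 in undertranslated RNA. The level of Atf1 could not be checked, since no ordinary probe set was named for it.

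Arrays were therefore quantile normalized on the log2(value + 1.1) scale, and each difference is undertranslated minus cytoplasmic log2 level relative to the other probe sets of the array. An absolute rise or fall was not measured, because less RNA in the light pool and a dimmer array cannot be told apart. After filtering on mean level, 9316 of 12422 probe sets were tested. By limma with Benjamini-Hochberg adjusted p under 0.05, called here throughout, 1344 probe sets of 1024 genes were higher in undertranslated RNA (14.4% of those tested) and 1387 of 1220 genes were lower (14.9%). All 4 undertranslated arrays lay on the called side of the cytoplasmic array of their serum state for all of these 2731 probe sets. The pools did not overlap for 2509 probe sets that were higher (26.9%) and 2341 that were lower (25.1%) on this scale. Counted with 1 probe set per gene, the shares were 25.8% higher and 27.1% lower of 6762 genes.

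The falls were also present in the deposited intensities, where the dimmer undertranslated arrays favour falls and work against rises. The counts as deposited are therefore no separate support for the falls. Of the 1387 probe sets called lower, 1386 had a lower intensity on all 4 undertranslated arrays than on both cytoplasmic arrays, and 383 were not above background on any undertranslated array. Of the 1344 called higher, only 263 had a higher intensity on all 4 undertranslated arrays than on both cytoplasmic arrays, and 210 were not above background on either cytoplasmic array. Over all genes, 2.59% lay above and 68% below on all 4 arrays as deposited. With median centring in place of quantile normalization, 1234 were higher and 2975 lower, and the median of all probe sets lay at -0.30 instead of 0.12. As deposited, 130 were higher and 5172 lower (29.3% and 2.45% of calls were rises in these 2 scalings, against 49.2%), around a median of -1.55, and 146 of the 1344 rises were then called lower. With the hybridization controls set equal, 8 were higher and 8820 lower (0.0906% rises), around a median of -3.45. The 8 include Sgip1, Chst2 and Vps13c, and 1350 probe sets were lower under all 5 scalings run.

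**Figure D1:**
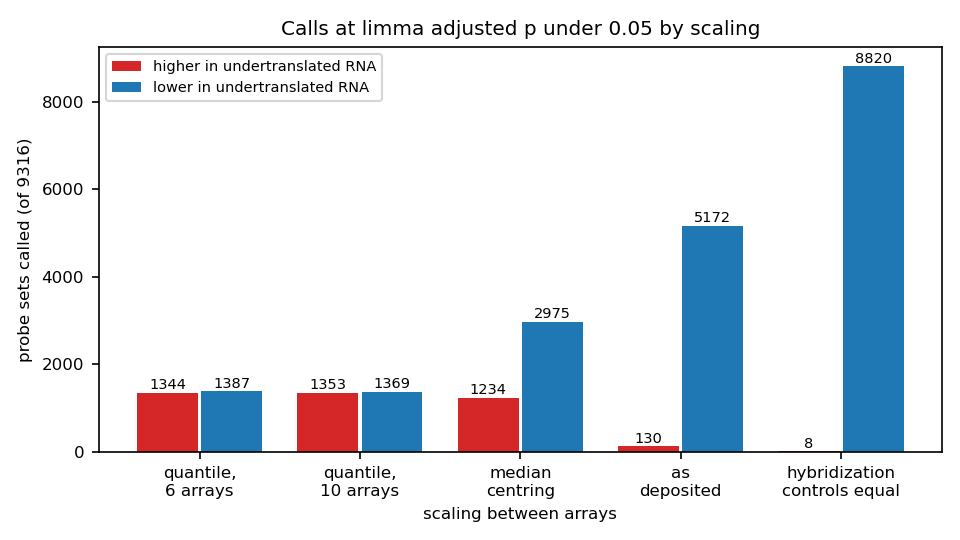
Number of the 9316 probe sets called higher (red bars) or lower (blue bars) in undertranslated RNA under each of 5 scalings between arrays (x axis). Quantile normalization gives 1344 rises and 1387 falls, and with the values as deposited 130 rises and 5172 falls remain.

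In the sentences on single genes, intensities come first, in the order starved and serum-treated for cytoplasmic RNA, and starved replicates 1 and 2 and then serum-treated replicates 1 and 2 for undertranslated RNA. Differences follow as log2 units ± SE over the 6 arrays, from limma. Counts of list members called are to be read beside the shares over all 6762 genes, 14.1% higher and 16.1% lower. Counts under median centring are to be read beside 11.8% higher and 35% lower.

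The 12 largest falls among probe sets with 1 gene symbol were those of Aebp1, Meg3, Capns1, Serpinh1, Sphk1, Psmd4, Ctsa, Gsn, Col6a1, Bsg, Txndc5 and Gadd45g. Aebp1, a secreted carboxypeptidase-like matrix protein, read 773 and 791 in cytoplasmic RNA and 1.7, 2.1, 1.3 and 3 in undertranslated RNA. All 4 undertranslated values were below background while both cytoplasmic ones were far above it, and Aebp1 was at least 20.7-fold lower (adjusted p = 7.45e-05). Capns1, the small calpain subunit, read 767 and 683 in cytoplasmic RNA and 1.9, 4.2, 2.4 and 3.9 in undertranslated RNA and was at least 19.2-fold lower. Bsg, the membrane glycoprotein basigin, read 563 and 353 in cytoplasmic RNA and 1.7, 2.8, 3.9 and 2.1 in undertranslated RNA and was at least 11.4-fold lower. Such a bound, on the quantile scale, sets the bright pool against the lowest level above background, since the dim pool never rose above it. Txndc5, a protein disulfide isomerase, was at least 13.2-fold lower, Ctsa, the lysosomal protective protein, at least 11-fold, and the proteasome ubiquitin receptor Psmd4 at least 10.8-fold. Sphk1, which makes sphingosine 1-phosphate, was at least 7.6-fold lower, with 118 and 629.8 in cytoplasmic RNA and no undertranslated value above 1.3. For each of these the pools were far apart in both serum states.

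Gadd45g, a growth arrest and DNA damage gene, stayed measurable in both pools. It read 2388 and 4421 in cytoplasmic RNA and 52.2, 99.9, 20 and 50 in undertranslated RNA, a difference of -4.92 ± 0.49 (adjusted p = 0.000265). The actin-severing protein gelsolin, Gsn, read 1090.4 and 1098 in cytoplasmic RNA and 2.9, 15.9, 3.1 and 11.5 in undertranslated RNA and differed by -5.16 ± 0.62. Its replicate 2 values were above and its replicate 1 values below background. A probe set of Col6a1 (at least 7.42-fold lower) completes the 12 largest falls beside Serpinh1, described with the matrix genes, and Meg3, described with the noncoding RNAs.

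**Figure D2:**
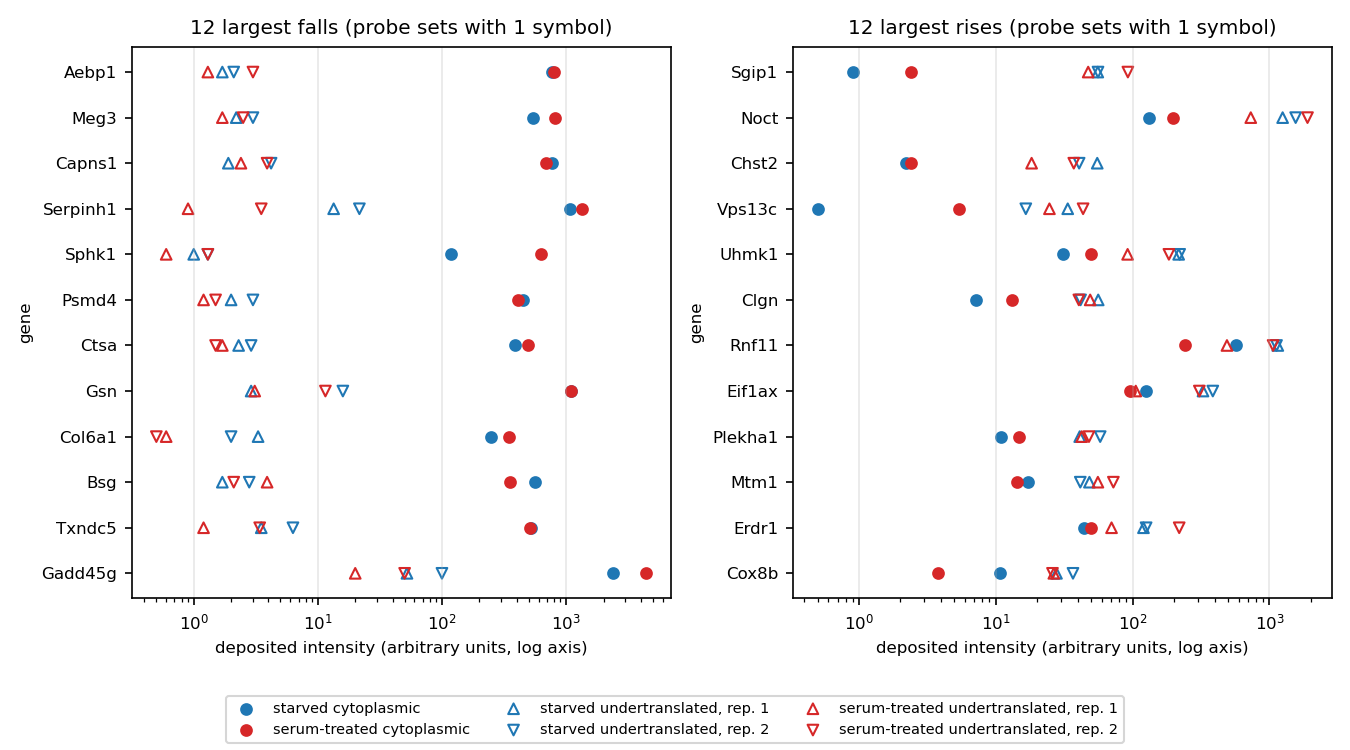
Deposited intensity (log axis) on each of the 6 arrays of the 12 largest falls (left) and the 12 largest rises (right) among probe sets with 1 gene symbol. Filled circles are cytoplasmic and open triangles undertranslated arrays, blue starved and red serum-treated. All undertranslated values of the falls lie left of both cytoplasmic values, and those of the rises lie right of them except for Rnf11 and Eif1ax, where the pools overlap.

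Over all probe sets, 8 of the 12 largest rises had either no gene symbol or several, against 0 of the 12 largest falls. The rises described here are the 12 largest among probe sets with 1 symbol, and 4 of these were not above background on either cytoplasmic array. Sgip1, an endocytic regulator of the FCHO family, read 0.9 and 2.4 in cytoplasmic RNA and 55.7, 55.9, 47.4 and 92.4 in undertranslated RNA. It was at least 15.3-fold higher (adjusted p = 3.01e-05), and both cytoplasmic values were below background. Chst2, a carbohydrate sulfotransferase, read 2.2 and 2.4 in cytoplasmic RNA and 55.2, 40.7, 18.3 and 37.2 in undertranslated RNA and was at least 8.49-fold higher. Vps13c, a lipid transfer protein, was at least 6.88-fold higher and Clgn, a testis chaperone, at least 11.8-fold. These 4 genes had undertranslated values that did not overlap the cytoplasmic ones even as deposited. Their bounds hold on the quantile scale only. As deposited, Sgip1, Chst2, Vps13c and Clgn differed by 4.55, 3.42, 3.17 and 2.13 log2 units. With the hybridization controls set equal, Sgip1, Chst2 and Vps13c differed by 2.65, 1.52 and 1.27, and Clgn was not called higher.

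Noct, a circadian NADP phosphatase, gave the brightest of these rises, with 132 and 199 in cytoplasmic RNA and 1248, 1553, 730.1 and 1896 in undertranslated RNA and a difference of 4.92 ± 0.17 (adjusted p = 8.81e-07). Its pools were again separate as deposited. Uhmk1, a kinase that binds RNA-regulating proteins, read 31.2 and 49.9 in cytoplasmic RNA and 217, 221, 92 and 184 in undertranslated RNA and differed by 3.98 ± 0.24. Eif1ax, an initiation factor that helps the ribosome scan to the start codon, read 125 and 95.8 in cytoplasmic RNA and 327, 386, 106 and 307 in undertranslated RNA and differed by 3.44 ± 0.21. For Eif1ax and for the ubiquitin ligase Rnf11 (3.47 ± 0.30) the serum-treated replicate 1 value fell among the cytoplasmic ones as deposited. Plekha1 (3.40 ± 0.35), Mtm1 (3.40 ± 0.42), Erdr1 (3.39 ± 0.29) and Cox8b (3.35 ± 0.48) complete the 12.

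Of these 12 genes, 9 had other probe sets in the test, 11 in all, and none of the 11 was called higher. Another Noct probe set, with 928 and 1353 in cytoplasmic RNA and 241, 276, 154 and 357 in undertranslated RNA, differed by 0.12 ± 0.18, and one of Uhmk1, with 589 and 394 in cytoplasmic RNA and 172, 179.9, 41.2 and 76.1 in undertranslated RNA, by 0.24 ± 0.22. Another Chst2 probe set leaned lower without a call (adjusted p = 0.141), and another of Eif1ax stood at 0.90 ± 0.40 (adjusted p = 0.126). Another Erdr1 probe set was called lower at -0.79 ± 0.18. Sgip1, Vps13c and Rnf11 had no other tested probe set. Of the 12 falls only Col6a1 and Meg3 had another tested probe set, and that of Col6a1 was also called lower, at -2.45 ± 0.24. At these 9 genes the called rise is the value of a single probe set.

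Probe sets without a single gene symbol, and those of some of the array's less specific designs, were called higher more often than the others. Among the 763 tested probe sets with no symbol 23.2% were called higher and 9.04% lower, and among the 324 with several 29.9% and 12.3%. Of the 8229 with a single symbol 13% and 15.5% were called. Of the 588 probe sets with the suffix r, which marks a set designed under relaxed rules, 33.5% were higher and 1.7% lower. Suffixes i and f had 26.8% and 22% higher, whereas s had 10.5% higher and 18.8% lower, and g 16.7% each way. Of the 7336 with no suffix letter 11.9% were higher and 16.8% lower, and they still made up 873 of the 1344 rises. The smallest adjusted p of all belonged to a probe set with no symbol, with 107 and 209 in cytoplasmic RNA and 2016, 2630, 1178 and 3009.7 in undertranslated RNA and a difference of 5.61 ± 0.17 (adjusted p = 7.91e-07). The array's control probe set for the B2 short interspersed repeat was also higher in the light pool, at 3218 and 3333 in cytoplasmic and 7182, 7798, 5669 and 8939 in undertranslated RNA. A second B2 control read 88.5 and 108.9 against 258.7, 372.3, 193 and 502.9. The B1 repeat control read 649 and 544 against 751, 958, 398 and 716, which overlap as deposited. On the quantile scale its log2 level was 7.63 and 7.48 against 9.75, 9.82, 10.27 and 10.02, higher on all 4 undertranslated arrays. The part of repeats, probe design or fragments of transcripts in the rises was not tested.

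Most matrix and collagen mRNAs, the main secretory load of fibroblasts, were lower in undertranslated RNA. Of 41 measured genes 27 were lower and 2 higher, with a median of -1.88 against 0.03 over all 6762 genes (16.1% lower and 14.1% higher). Serpinh1, the collagen chaperone of the endoplasmic reticulum, read 1078 and 1330 in cytoplasmic RNA and 13.4, 21.6, 0.9 and 3.5 in undertranslated RNA and differed by -5.49 ± 0.69 (adjusted p = 0.00081). The small proteoglycan biglycan, Bgn, read 5542 and 5436 in cytoplasmic RNA and 202, 299, 54.8 and 209.9 in undertranslated RNA, a difference of -4.51 ± 0.23 (adjusted p = 1.38e-05). Both of these probe sets read far lower on each of the 4 arrays. Another Bgn probe set was not called, at -0.26 ± 0.27. Sparc, a collagen-binding glycoprotein, read 2049 and 2000.2 in cytoplasmic RNA and 53.1, 70.2, 12.1 and 43.1 in undertranslated RNA and differed by -3.76 ± 0.38, and Col1a2, a chain of type I collagen, read 3926 and 3603 in cytoplasmic RNA and 194, 303, 44.7 and 211 in undertranslated RNA and differed by -3.49 ± 0.29. Fmod was at least 6.1-fold lower, and further falls were those of Fbln2 at -4.21, Eln at -3.72, Col6a2 at -2.90 and Tnc at -2.38. As deposited, 40 of the 41 lay lower on all 4 undertranslated arrays, against 68% of all genes, and under median centring 30 were lower and none higher (35% and 11.8% of all genes).

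The 2 called rises were Fn1, fibronectin, at 1.43 ± 0.22, and Col1a1, the other chain of type I collagen, at 1.57 ± 0.19. The Col1a1 value rests on the probe set with the higher mean level, which read 720.3 and 609 in cytoplasmic RNA and 467, 563, 189 and 472 in undertranslated RNA. As deposited, both Fn1 and this Col1a1 probe set were lower on all 4 undertranslated arrays. Another Col1a1 probe set read 3044 and 3266 in cytoplasmic RNA and 57.5, 61.6, 24.6 and 32.7 in undertranslated RNA and was called lower at -4.84 ± 0.23 (adjusted p = 8.29e-06). Col1a2 had the opposite pair, with another probe set higher at 1.60 ± 0.31. Of the 1260 genes with several tested probe sets, 40 were called in both directions, 32 higher and 32 lower in all their probe sets, 526 in some only and 630 in none.

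**Figure D3:**
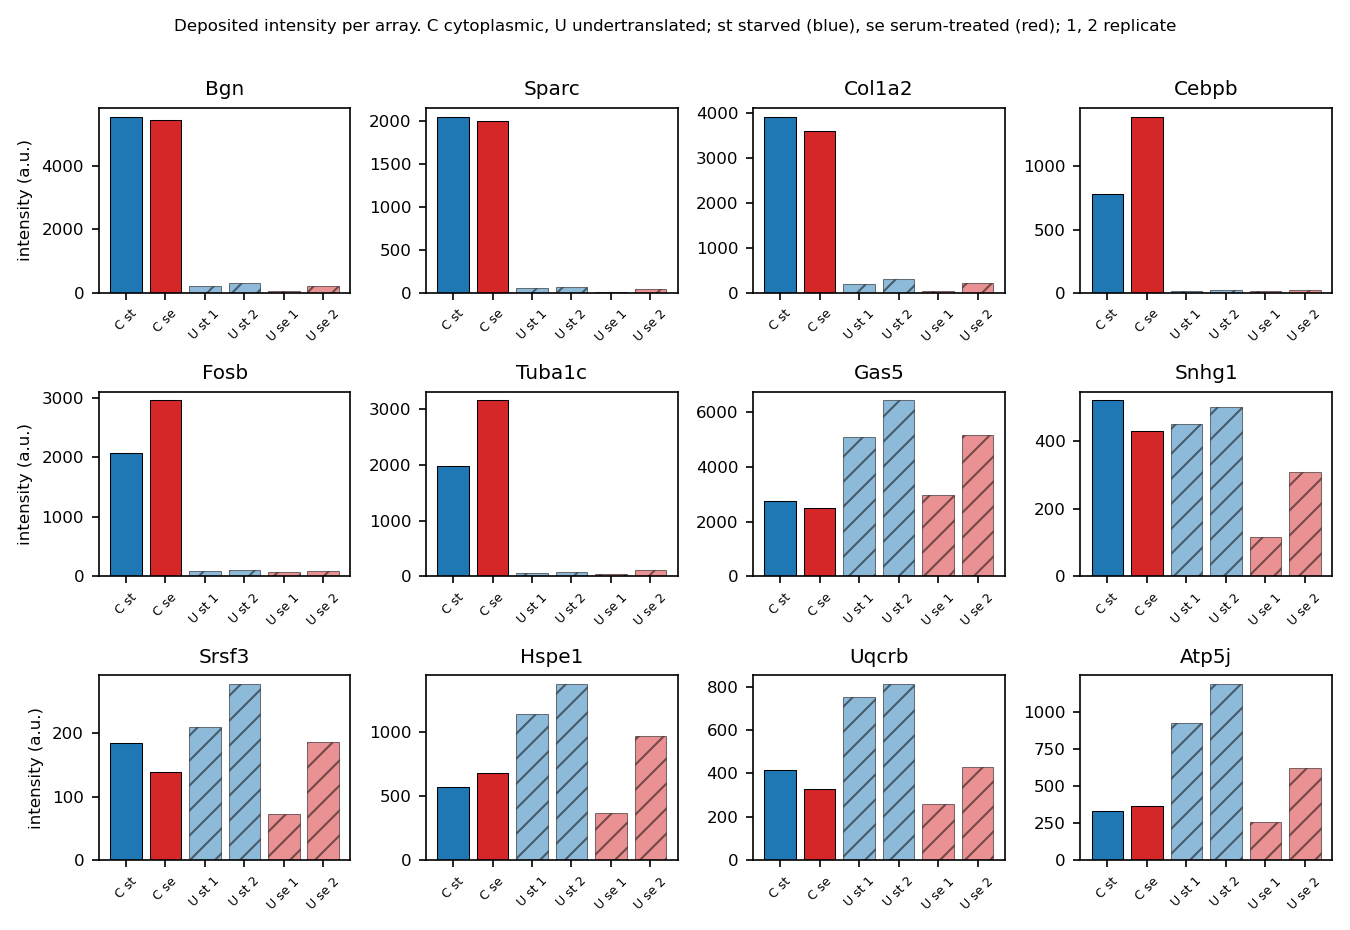
Deposited intensity (y axis, arbitrary units from 0) on each of the 6 arrays for 12 genes named in the text. The 6 genes Bgn, Sparc, Col1a2, Cebpb, Fosb and Tuba1c are far lower on all 4 undertranslated arrays (hatched), Gas5 is higher on all 4, and the other 5 overlap, with serum-treated replicate 1 the lowest undertranslated array for each of them.

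Chaperones and translocon parts of the endoplasmic reticulum, which fold and admit secreted proteins, were more often lower than higher. Of 24 genes 13 were lower, 4 higher and 7 not called, with a median of -1.14. Relative to the median of all genes the list stood at -1.18, but at -0.096 among probe sets above background on all 6 arrays. The prolyl hydroxylase P4ha1 was at least 5.23-fold lower and Ddost, of the oligosaccharyl transferase, at least 3.35-fold lower. Hspa5, the main chaperone of this compartment, was at -1.66, and Hsp90b1 at -1.43. The signal peptidase subunits Spcs1 and Spcs2 were higher, at 1.38 ± 0.30 and 1.53 ± 0.24, but as deposited both were lower on all 4 undertranslated arrays than on either cytoplasmic array.

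Cytoskeletal genes leaned the same way. Of 28 actin cytoskeleton genes 11 were lower and 3 higher (median -0.60), among them calponin Cnn2 at -3.54 ± 0.62 and transgelin, Tagln, at -2.86 ± 0.39. Tpm3 and Arpc5, a tropomyosin and a subunit of the actin-branching complex, were higher at 1.83 ± 0.25 and 1.38 ± 0.25, while their deposited intensities were lower on all 4 undertranslated arrays. Of 11 tubulins 6 were lower and 1 higher (median -0.95). Tuba1c read 1974 and 3161 in cytoplasmic RNA and 54.6, 72.8, 35.2 and 105 in undertranslated RNA and differed by -3.54 ± 0.25 (adjusted p = 5.77e-05). Actb did not pass, at -0.20 ± 0.24, with starved cells at -0.43 and serum-treated cells at 0.03, and neither did vimentin, Vim, at 1.06 ± 0.49. Another Actb probe set was called higher, at 1.37 ± 0.41 (adjusted p = 0.0351), with starved cells at 0.61 and serum-treated cells at 2.14. Another Tpm3 probe set was not called, at 0.05 ± 0.79.

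Immediate-early transcription factors, whose short-lived mRNAs serum induces, were more often lower than higher. Of 25 measured 12 were lower and 4 higher (median -0.80). Fosb read 2071 and 2956 in cytoplasmic RNA and 87.7, 102, 70.8 and 84 in undertranslated RNA, a difference of -3.01 ± 0.25 (adjusted p = 0.000113), and Ier3 differed by -3.11 ± 0.37. Egr1 was lower at -1.22 ± 0.16 and Myc at -1.76 ± 0.47, while Fos did not pass at -0.07 ± 0.27, with 2329 and 2017 in cytoplasmic RNA and 1257, 1046, 395 and 398 in undertranslated RNA. Junb did not pass at -0.80 ± 0.52, but another of its probe sets was at least 4.22-fold lower (adjusted p = 0.00345). Another Fos probe set was not called either and was below background in cytoplasmic RNA. The 4 higher genes were Id2, an inhibitor of basic helix-loop-helix factors, at 2.14 ± 0.24, Btg1 at 1.56 ± 0.34, Klf4 at 1.08 and Klf10 at 1.05. As deposited, Klf4 and Klf10 were lower on all 4 undertranslated arrays, and Id2 and Btg1 overlapped. The phosphatase Dusp1, which switches off MAP kinases, was lower at -0.68 ± 0.22, and Ptgs2, the inducible cyclooxygenase, did not pass at -0.62 ± 0.28.

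Secreted early-response factors had no common direction. Of 23 measured 5 were lower and 2 higher, beside 16.1% and 14.1% of all genes, with a median of 0.25. It stood at 0.22 relative to the median of all genes, but at -0.32 with values as deposited or median centred. The matricellular factor Ccn1 read 528 and 827 in cytoplasmic RNA and 11.1, 9.7, 7.5 and 9.9 in undertranslated RNA and differed by -3.81 ± 0.36, and the urokinase receptor Plaur was at least 3.24-fold lower. The chemokines Ccl2 and Cxcl12 were higher, at 0.84 ± 0.17 and 1.65 ± 0.26, although the deposited intensities of Ccl2 were lower in undertranslated RNA, with 1183 and 1151 in cytoplasmic RNA and 648, 729, 232 and 435 in undertranslated RNA. Other Cxcl12 probe sets were not called, at -0.13 ± 0.47 and 0.20 ± 0.60.

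Genes whose mRNAs carry regulatory upstream open reading frames, a known brake on initiation, were more often lower than higher in the light pool. Of 10 measured 6 were lower and 1 higher (median -1.03). Cebpb, a transcription factor, read 782 and 1394 in cytoplasmic RNA and 16.7, 21, 12.7 and 21.8 in undertranslated RNA and differed by -3.57 ± 0.30 (adjusted p = 0.000113). Atf4, the central factor of the integrated stress response, read 1378 and 1168 in cytoplasmic RNA and 114, 213, 71 and 93.4 in undertranslated RNA and differed by -1.16 ± 0.25 (adjusted p = 0.00916), and its relative Atf5 was at least 4.78-fold lower. Their pools did not overlap in either serum state. Ppp1r15a and Ppp1r15b, which reverse the block of initiation, were at -1.87 and -0.89. The exception was Ibtk, at 1.25 ± 0.33.

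Ribosomal protein mRNAs, the classic TOP messages, went both ways. Of 29 measured 9 were higher and 6 lower, with a median of 0.52. Under median centring 5 were higher and 6 lower, beside 11.8% and 35% of all genes. Rpl8 read 1576 and 1732 in cytoplasmic RNA and 30.6, 64.2, 9 and 24.6 in undertranslated RNA, a difference of -3.93 ± 0.43 (adjusted p = 0.000388), and Rpl22 was at -3.15 ± 0.73 on a probe set above background on 1 of 4 undertranslated arrays. Another Rpl22 probe set was not called, at 0.34 ± 0.52. Rps27 read 93.5 and 94.7 in cytoplasmic RNA and 71.4, 61.9, 37.1 and 54.7 in undertranslated RNA and differed by 1.56 ± 0.28 (adjusted p = 0.00431), so it dimmed less than most probe sets and was not brighter. Rpl32 was at least 3.31-fold higher, on a probe set that was below background in cytoplasmic RNA. Relative to the median of all genes the list stood at 0.49, and over the alternatives run between -0.000379 (probe sets above background on all 6 arrays) and 0.56.

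The starts shown are those of called genes of the ribosomal protein, translation factor and noncoding RNA lists that met the tract definition below. Rpl35a, Rpl38, Fau, Nap1l1 and Eif3f also met it but were not called. Rpl8, Rpl22 and Rpl32, named above, were not among the matches. Each line gives 10 bases before and 20 bases after the start of transcription annotated in RefSeq (GRCm38.p6), in the gene's own direction. Capitals mark the unbroken run of C and T that begins with a C at the start.
Rps27, chr3:90213629-90213658, minus strand: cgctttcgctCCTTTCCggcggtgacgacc
Gas5, chr1:161035156-161035185, plus strand: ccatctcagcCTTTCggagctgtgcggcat
Rps18, chr17:33955646-33955675, minus strand: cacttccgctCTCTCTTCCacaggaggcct
Rps10, chr17:27635225-27635254, minus strand: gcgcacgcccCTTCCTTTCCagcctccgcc
Rps27 and Gas5 were higher in undertranslated RNA, and Rps18 and Rps10 were lower, at -1.16 and -0.96. A start of C followed by at least 4 letters that are C or T was found for 6 of 25 ribosomal protein genes with a promoter in the table. It was found for 2.47% of 730 genes called higher and 2.47% of 891 called lower, against 2.98% of all 5439 tested genes with a promoter and 2.51% of all 32851 promoters in the table. A match is a description of these letters, and a gene with no match may start elsewhere than annotated.

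Translation factors of the TOP class also went both ways on the quantile scale. Of 13 measured 3 were higher and 3 lower (median -0.32), beside 14.1% and 16.1% of all genes. With median centring 1 was higher and 5 lower, beside 11.8% and 35% of all genes. The elongation factor Eef2 read 476 and 680.4 in cytoplasmic RNA and 30.6, 34.8, 13.2 and 35.1 in undertranslated RNA and differed by -1.91 ± 0.34, and Eef1d was at least 3.34-fold lower. Eif3e, a subunit of initiation factor eIF3, was higher at 1.85 ± 0.33, and Eef1b2 at 1.80 ± 0.47, whose other probe set was not called at 1.25 ± 0.82. The abundant Eef1a1 read 5144 and 5098 in cytoplasmic RNA and 6374, 7272, 1659 and 3846 in undertranslated RNA and did not pass at -0.44 ± 0.16 (adjusted p = 0.0674), and Tpt1 did not pass at -0.32 ± 0.13. For both, the serum-treated replicate 1 array gave the lowest value.

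Noncoding RNAs that host small nucleolar RNAs were higher. All 4 measured hosts were called, and none of the list of 5 was lower (median 1.52). Gas5, whose spliced RNA is a TOP transcript without a long reading frame, read 2764 and 2497 in cytoplasmic RNA and 5091, 6425, 2965 and 5149.7 in undertranslated RNA and differed by 1.61 ± 0.15 (adjusted p = 0.000193). It was above both cytoplasmic arrays on all 4 undertranslated arrays as deposited, and its other probe set was higher at 2.00 ± 0.35. Snhg1 read 520.3 and 431 in cytoplasmic RNA and 452, 502, 117 and 309 in undertranslated RNA and differed by 1.78 ± 0.19 (adjusted p = 0.000311), Snhg6 by 1.52 and Snhg5 by 1.43. As deposited, Snhg1 overlapped between the pools, and Snhg5 and Snhg6 were lower on all 4 undertranslated arrays. Under median centring 1 of the 5 was called higher, beside 11.8% of all genes. Meg3, an imprinted noncoding RNA, gave opposite values. Its probe set with the higher mean level was not called at 0.96 ± 0.50, while the other read 539 and 811 in cytoplasmic RNA and 2.2, 3, 1.7 and 2.5 in undertranslated RNA and was at least 17.1-fold lower.

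**Figure D4:**
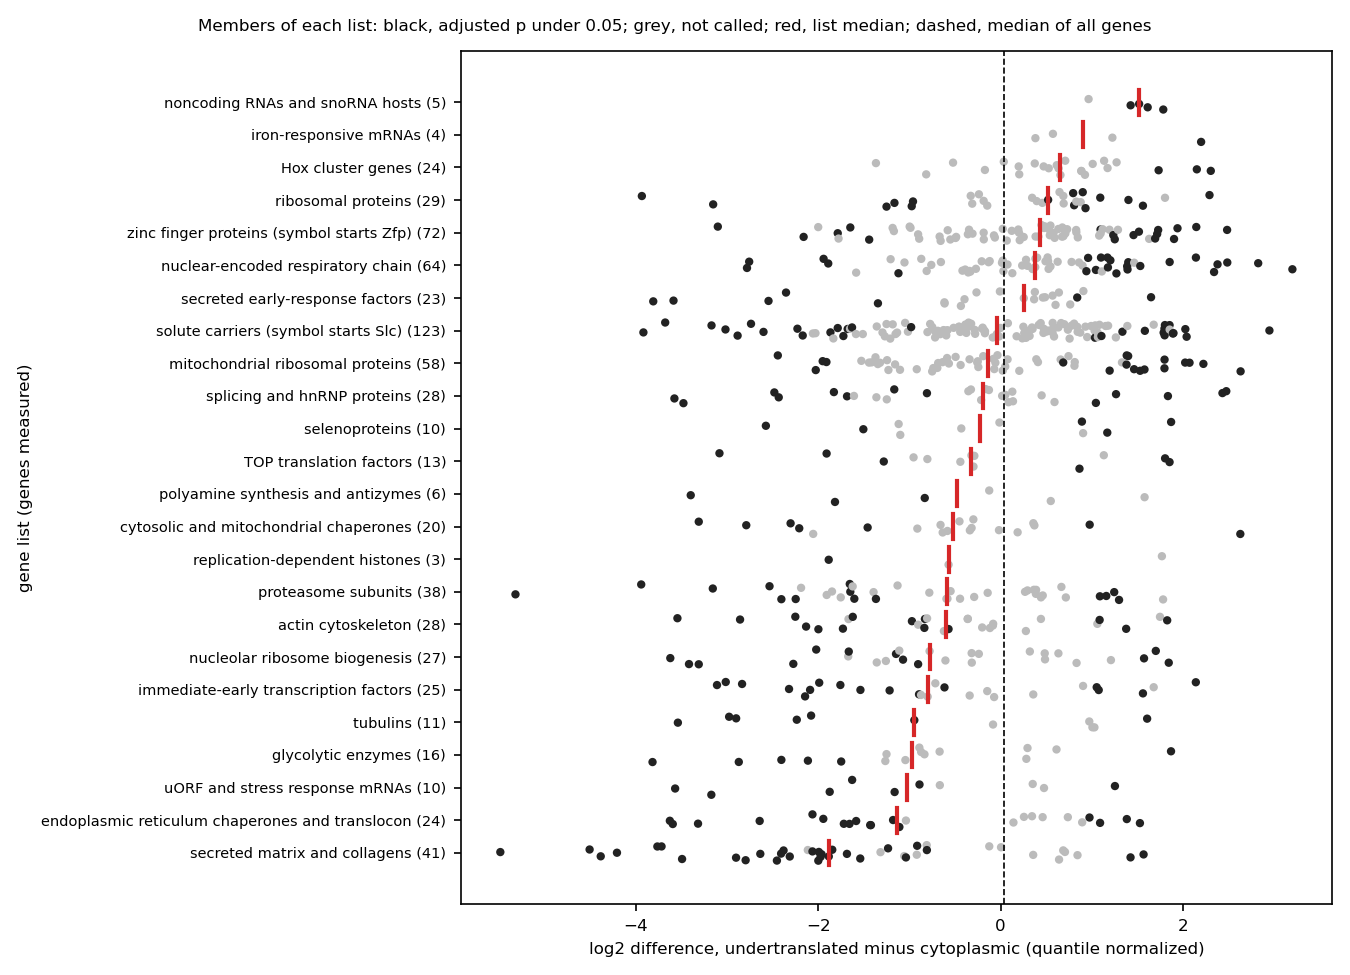
Log2 difference between undertranslated and cytoplasmic RNA (x axis, quantile normalized) for each measured gene of 24 lists (y axis, number of genes in brackets). Black points were called, grey ones were not, red bars are list medians from -1.88 (secreted matrix) to 1.52 (noncoding RNAs) and the dashed line is the median of all genes. The median of secreted early-response factors changes sides of that line under other scalings.

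Nuclear-encoded respiratory chain genes were more often higher than lower on the quantile scale. Of 64 measured 19 were higher and 5 lower, with a median of 0.38. Atp5j, a coupling subunit of ATP synthase, read 331 and 367 in cytoplasmic RNA and 922, 1188, 256 and 619.6 in undertranslated RNA and differed by 3.20 ± 0.20 (adjusted p = 2.83e-05). Uqcrb, of complex III, read 416 and 326 in cytoplasmic RNA and 754, 811, 261 and 431 in undertranslated RNA and differed by 2.83 ± 0.20 (adjusted p = 4.86e-05). Both exceeded the cytoplasmic arrays in all but the serum-treated replicate 1 array. Uqcrh at 2.49, Ndufb3 at 2.38, Cycs at 2.34 and Cox6c at 2.14 followed. The complex III subunits Uqcrc1 and Uqcr11 were lower, at -2.76 ± 0.73 and at least 1.67-fold lower, and Cyc1 was called higher at 1.39 and lower at -1.64 on its 2 probe sets. Under median centring the split of the list turned to 8 higher and 18 lower, beside 11.8% and 35% of all genes.

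Mitochondrial ribosomal proteins were 14 higher and 4 lower of 58 measured, with a median of -0.14. Mrps33 read 97.6 and 92.7 in cytoplasmic RNA and 139.5, 188, 60.6 and 145 in undertranslated RNA and differed by 2.63 ± 0.23 (adjusted p = 0.000132), and Mrpl27 by 2.22 ± 0.25. Mrpl4 was lower at -2.44 ± 0.61. Under median centring 4 were higher and 16 lower, beside 11.8% and 35% of all genes. The list's median was 0.12 in starved and -0.30 in serum-treated cells.

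RNA-processing and chaperone genes held strong members on both sides. Of 28 splicing and hnRNP genes 5 were higher and 8 lower (median -0.19), beside 14.1% and 16.1% of all genes. With median centring 2 were higher and 14 lower, beside 11.8% and 35% of all genes. Srsf3, a small SR protein, read 184 and 138 in cytoplasmic RNA and 209.6, 277, 71.8 and 186 in undertranslated RNA and differed by 2.48 ± 0.21, its other probe set was also higher at 1.95 ± 0.50, and Tra2b was higher at 2.43 ± 0.20 (adjusted p = 0.000113). Prpf8, the largest spliceosome protein, was lower at -3.58 ± 0.57 and U2af1, which reads the 3' splice site, at -3.48 ± 0.62. Of 20 cytosolic and mitochondrial chaperones 2 were higher and 5 lower (median -0.52), and under median centring 1 was higher and 15 lower. Hspe1, the mitochondrial co-chaperonin, read 569 and 679 in cytoplasmic RNA and 1142, 1379, 369 and 969.9 in undertranslated RNA and differed by 2.63 ± 0.17 (adjusted p = 3.79e-05), whereas its partner Hspd1 was lower at -2.30 and the heat shock gene Dnajb1 at -3.31 ± 0.45.

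Of 38 proteasome subunits 10 were lower and 4 higher (median -0.59), beside 16.1% and 14.1% of all genes. With median centring 24 were lower and 1 higher, beside 35% and 11.8% of all genes. Psme3, an activator cap, was at least 4.55-fold lower, and Psmd14, a deubiquitinating subunit, was higher at 1.30 ± 0.34. Psmb5, a catalytic subunit, was called higher at 1.25 ± 0.41 and lower at -3.12 ± 0.59 on its 2 probe sets. As deposited both probe sets were lower on all 4 undertranslated arrays. Of 27 nucleolar genes for ribosome biogenesis 9 were lower and 3 higher (median -0.78), with Pes1 at least 2.82-fold lower and nucleolin, Ncl, at -3.31. The RNA polymerase I subunits Polr1b and Polr1c were higher, at 1.70 ± 0.29 and 1.84 ± 0.32, though another Polr1c probe set was not called at 0.51 ± 0.35. Of 16 glycolytic genes 5 were lower and 1 higher (median -0.97), and under median centring 11 were lower and none higher. The phosphofructokinase Pfkp was at least 3.49-fold lower, its other probe set was also called lower at -2.41 ± 0.74, and hexokinase Hk1 was the gene that was higher, at 1.87 ± 0.26.

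Smaller groups are given by their members. Among iron-responsive mRNAs the transferrin receptor Tfrc was higher at 2.20 ± 0.35 (adjusted p = 0.0025), with 138 and 143 in cytoplasmic RNA and 131, 139, 111 and 99 in undertranslated RNA, while ferritin heavy chain, Fth1, did not pass at 0.38 ± 0.18 and 2 others did not pass. Another Fth1 probe set was higher at 1.98 ± 0.43, and another of Tfrc was not above background on any of the 6 arrays. Of 6 polyamine genes the antizyme Oaz2 was at least 2.9-fold lower, Srm was lower at -1.82 ± 0.31 and Azin1 at -0.83, and Odc1 did not pass at 0.55 ± 0.27. Of 10 selenoproteins Gpx1 (1.87 ± 0.27), Selenot (1.17 ± 0.22) and Selenof (0.89) were higher, and Msrb1 (-2.57 ± 0.68) and Txnrd1 (-1.50 ± 0.32) lower. Under median centring none of the 10 was higher and 5 were lower, beside 11.8% and 35% of all genes. As deposited none lay above both cytoplasmic arrays on all 4 undertranslated arrays, and Selenot was lower on all 4. Of 3 histone genes the linker histone H1f2 was lower, at -1.89 ± 0.34.

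Gene families chosen by symbol had shares of calls near or below those of all genes (14.1% higher and 16.1% lower). Of 72 Zfp genes 12 were higher and 5 lower (median 0.43). Under median centring 12 were higher and 14 lower, beside 11.8% and 35% of all genes. Zfp930 was higher on both its probe sets, at 2.48 ± 0.39 and 1.52 ± 0.43, and Zfp36, whose product degrades AU-rich mRNAs, was lower at -3.10 ± 0.19 (adjusted p = 2.83e-05). Of 24 Hox genes 3 were higher and none lower (median 0.65). They were Hoxb8 at 2.31 ± 0.46, Hoxb1 at 2.15 ± 0.46 and Hoxa4 at 1.73, of which Hoxb1 was above background on 1 of 2 cytoplasmic arrays. Of 123 solute carriers 14 were higher and 15 lower (median -0.04), from Slc38a10 at -3.92 ± 0.68 to Slc16a8, which was at least 3.1-fold higher. Their median changed sides of that of all genes under other scalings.

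Calls were more frequent among bright probe sets. In the lowest quartile of mean level 3.52% were higher and 11.6% lower, and in the highest 31.3% and 21.2%. The 3660 probe sets above background on all 6 arrays, fitted alone, gave 1378 higher and 621 lower.

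Within serum states fewer calls were made, each state resting on 2 undertranslated arrays and 1 cytoplasmic array. In starved cells 189 probe sets were higher (2.03%) and 166 lower (1.78%), and in serum-treated cells 482 (5.17%) and 499 (5.36%). Of the higher ones 177 were called in both states, 93.7% of the starved and 36.7% of the serum-treated calls, and of the lower ones 150, 90.4% and 30.1%. None was called in opposite directions. Without the variance trend of limma no probe set was called in either state (1637 and 2510 at an unadjusted p under 0.05). Leaving out 1 array at a time gave 16 to 1365 calls in starved and 142 to 2331 in serum-treated cells, with the fewest in both states without starved undertranslated replicate 1. Without starved undertranslated replicate 2 they were 27 and 169.

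Among probe sets with 1 gene symbol, Sgip1 and Noct led the called rises in both states, at 5.37 and 4.88 in starved and 5.88 and 4.96 in serum-treated cells. Chst2 was next in starved cells, at 4.60 ± 0.66 with adjusted p = 0.0139, and the transmembrane protein gene Tmem129 in serum-treated cells, at 4.94 ± 1.19, against 1.20 ± 1.19 in starved cells. Another Tmem129 probe set differed by 0.03 ± 0.39. Aebp1, Capns1 and Bsg led the falls in starved cells, at -6.20, -5.75 and -5.52. Serpinh1, Sphk1 and Gadd45g led those in serum-treated cells, at -7.12, -6.65 and -6.18. Except for Gadd45g, the undertranslated values behind these falls were below background in the state named, as were the cytoplasmic values behind the rises of Sgip1, Chst2 and, in serum-treated cells, Tmem129, so those sizes depend on the pseudocount.

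Whether a pool difference depended on serum was tested as the difference of the 2 differences. No probe set passed in limma, where the smallest adjusted p was 1 and 133 probe sets had an unadjusted p under 0.05. None passed under any alternative that could be fitted, the largest unadjusted count being 1061 without serum-treated undertranslated replicate 2. Serpinh1 stood at -3.85 ± 0.67 in starved and -7.12 ± 0.67 in serum-treated cells, a shift of -3.28 ± 0.94, and Gadd45g shifted by -2.53 ± 0.54. Rnf11 shifted by 1.50 ± 0.33 and Tmem129 by 3.73 ± 1.68. The unadjusted limma p was 0.00188 for Gadd45g, 0.00223 for Rnf11, 0.00931 for Serpinh1 and 0.059 for Tmem129, and none of these passed adjustment over the 9316 probe sets. Equal pool differences in both states were not shown either.

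**Figure D5:**
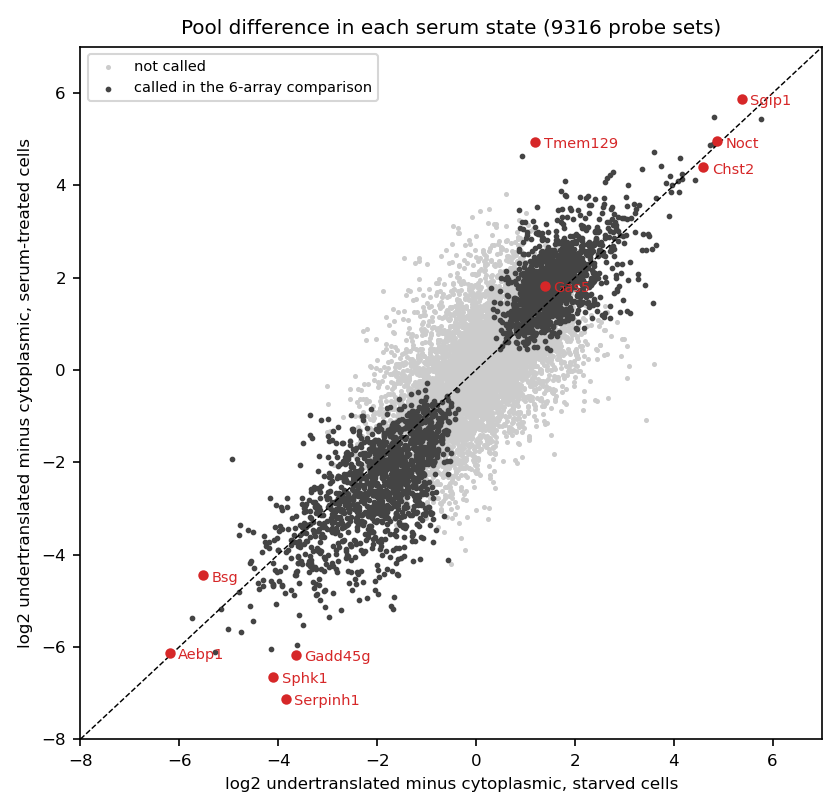
Log2 difference between undertranslated and cytoplasmic RNA in starved cells (x axis) and in serum-treated cells (y axis) for the 9316 tested probe sets, black where called over the 6 arrays. Red points are the genes that led a serum state, except Capns1, which is not marked, and Gas5. The dashed line marks equal differences. Serpinh1, Sphk1 and Gadd45g lie below the line at the lower end and Tmem129 above it.

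The pool difference over all 6 arrays depended on the cytoplasmic arrays more than on any other. Without the serum-treated cytoplasmic array 397 probe sets were called, and without the starved one 982, since each then leaves the difference of a single serum state. Without starved undertranslated replicate 1 the count was 1794, and without any of the other undertranslated arrays it was 2096 to 3421. The undertranslated replicates differed by a median SD of 0.30 in starved and 0.50 in serum-treated cells, and their log2 values correlated at r = 0.892 and 0.794 across probe sets, which are not independent. The cytoplasmic arrays of the 2 serum states correlated at 0.95, and undertranslated with cytoplasmic arrays at 0.526 to 0.742.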

How the data were processed

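Per the labels' protocols, a T7-based linear amplification gave biotinylated RNA, which was put on Affymetrix arrays. Each deposited value is the intensity of a probe set on an array, not logged. How the authors summarised and scaled them is not given in the sources used here. Among 12488 probe sets, 66 are controls. Without these, 10833 have 1 gene symbol in the platform annotation, 396 several and 1193 none, and only the first were named. The Entrez identifier of 10817 matched the RefSeq gene table.

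Values were taken as log2(value + 1.1), the 10th percentile of all values, which understates changes of dim genes, and quantile normalized over the 6 arrays. Only probe sets whose mean level exceeded the 25th percentile were tested. limma 3.58.1 in R 4.3.3 (lmFit, eBayes with trend) fitted pool and serum state (3 residual degrees of freedom) or the 4 group means (2), two-sided, with Benjamini-Hochberg adjustment over all probe sets tested at 0.05. The cytoplasmic spread was assumed to equal that of the undertranslated replicates. The number of arrays limits the precision. List members used the probe set with the highest mean level. Lists, members and tests were chosen with earlier results of these data known.

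Named genes were the 12 largest rises and falls called with all 4 arrays in that direction, up to 2 called members each way per list, 27 fixed genes, and the 3 largest called each way in each serum state; other list members and probe sets were added after their values were seen, as were list counts under median centring and as deposited. Alternatives were other scalings, pseudocounts of 1 and 4, other filters, no trend, array weights, a replicate block, unlabelled cultures only and each array left out. The labels give the replicate numbers, 2 being the 4-thiouridine cultures. Deviations of same-numbered undertranslated arrays from their group means correlated at 0.0399. A planned look at protein length was not run, since no protein table was used here. The fits were tested on simulated data. Promoter sequences come from RefSeq tables.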

Additional observations from a re-analysis of the deposited data

Results flagged for a closer look

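A probe set of Actb and the list of mitochondrial ribosomal proteins came up because the pool difference had opposite signs in the 2 serum states. For this Actb probe set it was -0.43 in starved and 0.03 in serum-treated cells, a shift of 0.47 log2 units that did not pass in limma (adjusted p = 1). Another Actb probe set was positive in both states, at 0.61 and 2.14, and was called higher over the 6 arrays. For the mitochondrial ribosomal proteins the list median was 0.12 in starved and -0.30 in serum-treated cells, and the median shift of its members was -0.18, with no member called and no test of the list.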

How the results depend on the processing

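The counts of called probe sets depended on the scaling between arrays. With values as deposited they were 5302 over the 6 arrays, 2824 in starved and 3938 in serum-treated cells, with median centring 4209, 1237 and 2143, and with hybridization control scaling 8828, 8040 and 8014, against 2731, 355 and 981. In starved cells the count was 226 with no filter on low values, 867 among probe sets above background on all 6 arrays and 929 with array weights. Without a variance trend 0 were called in either state. With the replicate number as a block, the counts were 2657 over the 6 arrays, 595 in starved and 1396 in serum-treated cells. Leaving out 1 array at a time gave 397 to 3421 calls over the 6 arrays, 16 to 1365 in starved and 142 to 2331 in serum-treated cells. The other alternatives moved these counts by 1.5 times or less, and the shift by serum had no call under any alternative fitted. No named gene that was called changed direction relative to the shift of the median of all probe sets, a reference added after the data were seen. List medians against that of all genes changed sign under at least one alternative for secreted early-response factors, solute carriers, selenoproteins, mitochondrial ribosomal proteins, nucleolar genes and ribosomal proteins. The causes were not tested. Signal over background limits all values of the undertranslated pool.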
